A study of Homo sapiens with 4 samples.

Results

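The mitochondrial ribosomal protein genes were examined on 4 one-colour Agilent arrays of human prostate cancer cells. Members were all genes whose name on the array begins with MRPL (large subunit) or MRPS (small subunit) followed by a number, the latter with an optional letter A to C. Of 27224 gene names on the array, 76 were members, 47 of the large and 29 of the small subunit. They were read by 91 probes, and the brightest probe of a gene stands for it. LNCaP, a line that depends on androgen, and PC3, a line that does not, were each hybridised without treatment (LNCaP control, PC3 control) and after 24 h in 10 µM atorvastatin (LNCaP ATO, PC3 ATO). Each of the 4 groups held 1 array, and no vehicle is named in the labels of the untreated controls. No difference below has a replicate check, and having so few arrays limits how precise any value can be.

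Mitochondria keep a small genome of their own, and the few proteins it encodes are nearly all subunits of the respiratory chain. A separate ribosome inside the organelle, the mitoribosome, translates them. Its RNA comes from the mitochondrial genome, whereas all of its proteins are encoded in the nucleus, made in the cytosol and imported. Some of these proteins descend from the proteins of bacterial ribosomes, and others are found only in mitochondria. Statins such as ATO inhibit the first committed step of the mevalonate pathway, which supplies cholesterol, the tail of coenzyme Q and the lipid anchors of small GTPases. The comparison of ATO with control asked how each line responds, and the comparison of the controls asked how the lines differ before treatment.

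Names follow the array's design, and some place a protein on a subunit where it is not found. MRPS30 and MRPS18A are proteins of the large subunit in spite of their names. MRPS36 is now counted as a subunit of the oxoglutarate dehydrogenase complex, and it was the member whose name is no longer a current symbol (75 of 76 were). All were kept, since the members were chosen by name.

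The promoters of the members shared short sequences that the choice by name did not use. RefSeq promoters of the GRCh38.p14 assembly, each with 250 bases before and 50 bases after the start site, were at hand for 67 members and for 27305 genes in all. Factors of the ETS family, among them GABP, and the factors NRF1 and YY1 are known regulators of nuclear genes for mitochondrial proteins. On either strand, the ETS letters CCGGAAG stood in 28 of 67 member promoters (41.8%), against 10.7% of all promoters. The YY1 letters AAGATGGC stood in 20 (29.9%), against 3.03% of all promoters. The NRF1 letters GCGCATGCG stood in 3 (4.48%), against 2.10%. The letters GGGCGG, bound by SP1, stood in 41 (61.2%), against 44.6%, and TATAAA in 2 (2.99%), against 11.95%. At least 1 of the ETS and YY1 matches was found in 40 member promoters (59.7%, against 13.1%) and both in 8 (11.9%, against 0.597%). The ETS and YY1 letters can overlap by the bases AAG, but no pair of matches overlapped in the member promoters. The NRF1 letters nearly equal their own reverse strand, so a single place can match on both strands, as in MRPL17. A match describes the letters only and does not show binding.

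The stretches before the start sites of 4 members are shown because these genes lie at the ends of the values below, and because they differ in their ETS matches, which are in capitals. Each is written 5′ to 3′ on the strand of the gene. MRPL14 (GRCh38.p14 chr6:44127309-44127558, minus strand) has the lowest ratio in PC3 and no ETS match here. MRPL54 (chr19:3762432-3762681, plus strand) is the member furthest below LNCaP in untreated PC3 and has 1 match. MRPS10 (chr6:42217862-42218111, minus strand) is among the 3 members over 2-fold higher in untreated PC3 and has 1 match before the start site. MRPS34 (chr16:1773135-1773384, minus strand) has the lowest ratio in LNCaP and 3 matches, all on the opposite strand.
MRPL14: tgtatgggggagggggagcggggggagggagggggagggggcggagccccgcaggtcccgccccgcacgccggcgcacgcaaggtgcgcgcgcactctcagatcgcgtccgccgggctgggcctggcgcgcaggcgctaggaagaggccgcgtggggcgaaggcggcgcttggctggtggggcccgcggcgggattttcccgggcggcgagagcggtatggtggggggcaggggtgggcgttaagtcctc
MRPL54: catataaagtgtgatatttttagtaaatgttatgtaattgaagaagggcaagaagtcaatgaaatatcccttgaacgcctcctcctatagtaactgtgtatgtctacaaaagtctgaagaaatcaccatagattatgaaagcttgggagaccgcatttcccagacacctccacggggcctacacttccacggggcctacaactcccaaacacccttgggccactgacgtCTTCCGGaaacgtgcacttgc
MRPS10: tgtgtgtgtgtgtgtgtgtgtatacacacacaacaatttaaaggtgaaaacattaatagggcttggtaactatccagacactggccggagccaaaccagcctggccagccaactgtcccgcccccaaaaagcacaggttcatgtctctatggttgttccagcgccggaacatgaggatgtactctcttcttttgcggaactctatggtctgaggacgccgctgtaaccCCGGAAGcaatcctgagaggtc
MRPS34: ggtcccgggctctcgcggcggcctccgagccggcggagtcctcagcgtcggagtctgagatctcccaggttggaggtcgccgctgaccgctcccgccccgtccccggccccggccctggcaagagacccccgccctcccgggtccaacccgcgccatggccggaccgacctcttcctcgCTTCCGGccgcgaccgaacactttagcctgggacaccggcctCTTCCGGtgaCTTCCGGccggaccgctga

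The matches also had preferred places. Counted from 0 at the start site, 21 of the 28 member promoters with an ETS match held it in the 100 bases before the start (75%), against 58.7% of the 2913 promoters with a match among all genes. Of the 20 member promoters with a YY1 match, 15 held it on the sense strand at or after the start site (75%), against 379 of 828 (45.8%) among all genes.

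**Figure D1:**
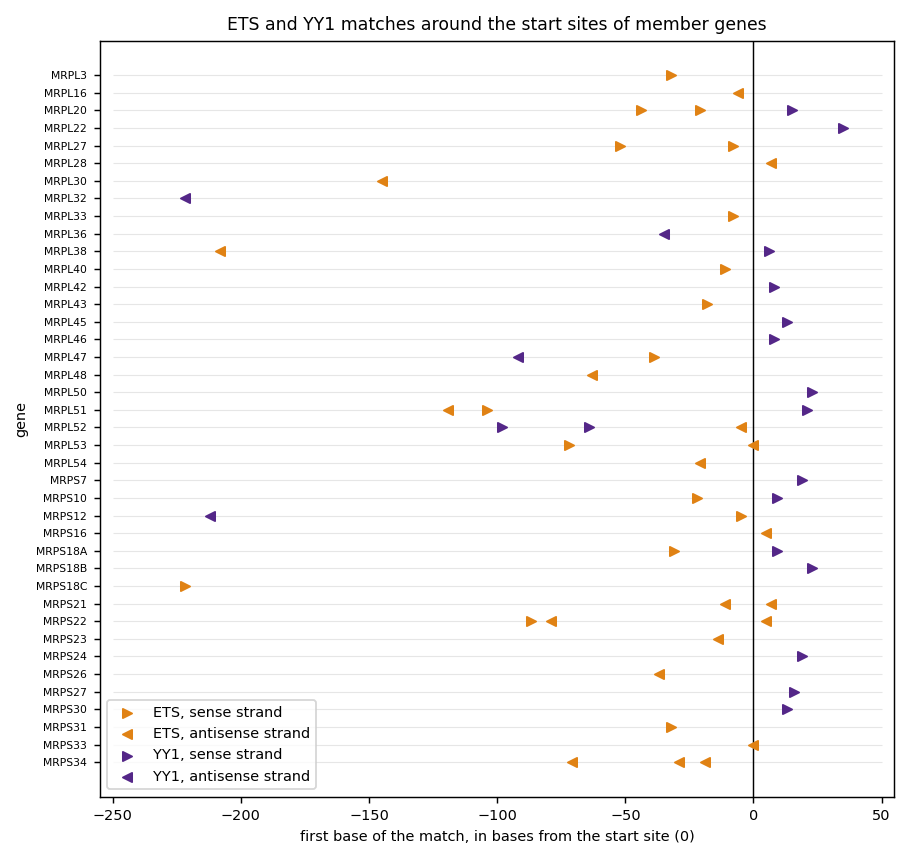
Positions of ETS (orange) and YY1 (purple) matches in the promoters of the 40 members that hold at least 1. The horizontal axis gives the first base of a match in bases from the start site (0), arrows to the right are matches on the sense strand and arrows to the left on the antisense strand. Most ETS matches lie shortly before the start site, and 15 of 20 promoters with a YY1 match hold it on the sense strand at or after the start.

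Each level below is the log2 of the processed signal of a probe minus the log2 of the 75th percentile of its array, and a log2 ratio is the difference of 2 such levels. A probe counts as well above background where the scanner called more than 50% of its usable spots so. Signals in intensity units are given before this scaling, and the 75th percentiles were 490.7 units without and 529.8 with ATO in LNCaP, and 586.3 and 564.6 in PC3. Levels of different genes are not compared, since each probe has its own response. On the whole array, between 48.5% and 52.9% of gene spots were well above background and no spot was saturated. The lines carried their labelled markers: KLK3, which encodes prostate specific antigen, gave 65990 units in LNCaP control and 11.2 in PC3 control, and CAV1, which encodes caveolin, gave 7.78 units in LNCaP control and 12390 in PC3 control. All 4 arrays lay on 1 slide, so the position on the slide and the group cannot be told apart. In bulk RNA, fewer cells that express a gene and less RNA per cell cannot be told apart.

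Nearly all members gave a signal in both lines. On all 4 arrays, 75 of the 76 probes were well above background. The exception was MRPL35, the large subunit protein bL35, at 29.3 units without and 37.2 with ATO in LNCaP, and 145.1 without and 125.4 with ATO in PC3. Its probe was not well above background in LNCaP ATO, where it has only a bound. MRPS25, a protein particular to the small subunit of mitochondria, gave 286.2 units without and 349.5 with ATO in LNCaP, and 414.9 and 400.0 in PC3. Local background was unusually bright around the spots of 30 members on at least 1 array (1 member without and 10 with ATO in LNCaP, 7 without and 15 with ATO in PC3).

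**Figure D2:**
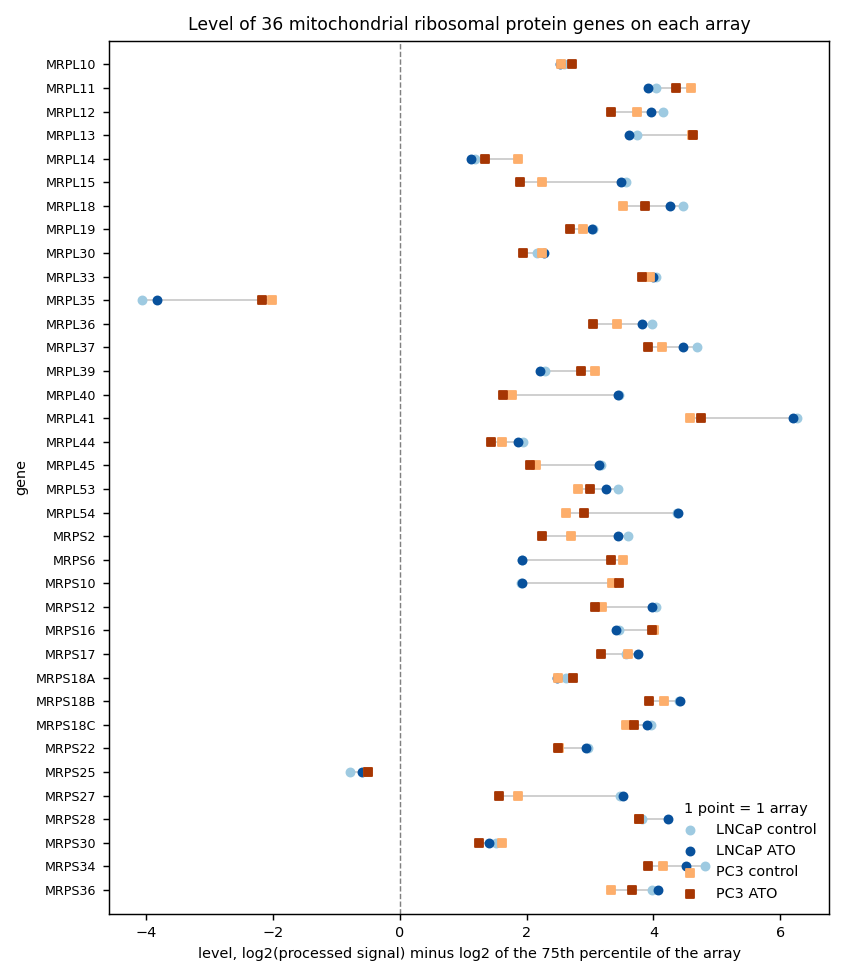
Level of the 36 members named by rule on each of the 4 arrays, in log2 units relative to the 75th percentile of the array (dashed line at 0). Circles are LNCaP, squares are PC3, light colours are controls and dark colours ATO. The points of 1 line lie close together for most genes, while MRPL41, MRPL54, MRPL40 and MRPS27 lie far lower in PC3 and MRPS6, MRPS10 and MRPL35 far higher.

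No member differed by 1.5-fold or more between ATO and control in either line. In LNCaP, 0 of 76 members passed 1.5-fold, against 4.77% of the 13739 genes with a value. In PC3, 0 of 76 passed, against 18.5% of 13815 genes. The ratios of the members were also less spread than those of all genes, with an SD of the log2 ratio of 0.10 against 0.24 in LNCaP and of 0.19 against 0.44 in PC3. The spread of all genes includes that of many dimmer probes.

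In PC3 the members leaned below the rest of the array. The median log2 ratio was -0.13 over the members and 0 over all genes, with 53 members below 0 and 23 above. The sign of this median depends on the scaling: with the 50th percentile it was 0.07, with 0.19 over all genes, and with the spike-in probes -0.23, with -0.10 over all genes. Relative to the median of all genes, the members were lower by between 0.12 and 0.14 log2 units under the 75th percentile and each of 4 other scalings. The 75th and 50th percentiles and the spike-in probes each subtract a constant per array, which moves this gap only through genes with a bound. Only quantile normalization (0.14) and normexp, a different background correction (0.12), could move it otherwise. At 1.25-fold, a threshold added after the values were seen, 10 members were lower (13.2%, against 21.1% of all genes) and 2 were higher (2.63%, against 19.8%). Both shares were below those of the array as a whole.

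Among the members with the lowest ratios in PC3 were proteins of the bacterial core of both subunits. MRPL14 (chr6:44189353-44189412 of hg18) is the large subunit protein uL14, at the face that meets the small subunit. It gave 1113 units without and 1162 with ATO in LNCaP, and 2129 without and 1431 with ATO in PC3. The 2 LNCaP arrays were alike and the PC3 control array was the highest of the 4, so the log2 ratios were -0.05 in LNCaP and -0.52 in PC3. The latter is a 1.43-fold difference and has a scanner error of 0.20 on the log2 scale. The scanner error of a ratio combines the errors that the scanner software assigns to the spots on the 2 arrays. It is not reduced for probes printed several times. MRPS2 (chr9:137536162-137536221), the small subunit protein uS2, gave 5956, 5789, 3807 and 2681 units in the same order. Its log2 ratios were -0.15 in LNCaP and -0.45 in PC3. MRPS17 (chr7:55990349-55990408), the small subunit protein uS17, gave 5828, 7181, 7092 and 5080 units. Here the lines went apart, with a log2 ratio of 0.19 in LNCaP and -0.43 in PC3.

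MRPL12 (chr17:77284394-77284453) forms the stalk of the large subunit, which recruits translation factors, and also binds the mitochondrial RNA polymerase. It gave 8673 units without and 8231 with ATO in LNCaP, and 7807 without and 5713 with ATO in PC3. The ATO array was below its control in both lines, with log2 ratios of -0.19 in LNCaP and -0.40 in PC3. For another probe of MRPL12 they were 0.07 and -0.52. MRPL36 (chr5:1851807-1851866), the small zinc-binding protein bL36, gave 7730, 7516, 6290 and 4668 units and a log2 ratio of -0.38 in PC3. MRPS30, which sits in the large subunit, gave 1407, 1401, 1798 and 1338 units and a log2 ratio of -0.37 in PC3. For these 6 genes the log2 ratio in PC3 stayed below 0 under every scaling tried.

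The stalk base held both directions. MRPL10, which anchors MRPL12, gave 2971, 3052, 3432 and 3710 units, and its log2 ratios were -0.07 in LNCaP and 0.17 in PC3. MRPL11, which neighbours it at the base, gave 8096, 8026, 14190 and 11510 units, with log2 ratios of -0.12 and -0.25. Neither MRPL10 ratio passed its scanner error, and that of MRPL11 in PC3 did.

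At the other end were the members with the highest ratios in PC3. MRPL18 (chr6:160139084-160139143), the large subunit protein uL18, gave 10900 units without and 10160 with ATO in LNCaP, and 6714 without and 8279 with ATO in PC3. Its log2 ratios were -0.21 in LNCaP and 0.36 in PC3, the highest of the members in PC3. The PC3 value was 0.05 after normexp, a different background correction, and the spot in LNCaP ATO had a bright local background. MRPS36 (chr5:68560792-68560851) gave 7712, 8889, 5882 and 7153 units and was higher in both lines, with log2 ratios of 0.09 in LNCaP and 0.34 in PC3. Another probe of the gene gave 0.01 and 0.28. MRPL54 (chr19:3716301-3718289), a protein particular to the mitochondrial large subunit, gave 10210, 11070, 3606 and 4223 units, with log2 ratios of 0.01 and 0.28. MRPS18A gave 3024, 2957, 3323 and 3759 units and a log2 ratio in PC3 of 0.23, and MRPL53 gave 5309, 5051, 4122 and 4525 units and one of 0.19. For MRPL53 another probe gave 0.05 in PC3. The 3 genes of the MRPS18 family, all related to bacterial S18, had ratios of both signs in PC3, where MRPS18B was at -0.24 and MRPS18C at 0.12. However, a second probe of MRPS18B gave -0.01. The value of MRPS18C lay within its scanner error and was -0.02 after normexp.

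Set against the scanner error of each ratio, 27 members in PC3 lay further from 0 than 1 error, 23 of them lower (30.7%, against 24.9% of 12513 genes measured on both arrays) and 4 higher (5.33%, against 27%). The split depends on the scaling: with the 50th percentile 3 were lower and 20 higher, and with the spike-in probes 41 were lower and 2 higher. Further from 0 than 2 errors lay 3 members (MRPL14, MRPS2 and MRPS17). For 8 members the probe was printed 10 times, which gives a measure of the spread between spots on 1 array. Over these copies the standard error of the log2 ratio in PC3 was between 0.02 and 0.06. MRPL32, the large subunit protein bL32, was picked here for its copies after the values were seen. It gave 7789 units in PC3 control and 5833 in PC3 ATO over 9 spots each, a log2 ratio of -0.36 with a standard error of 0.02, and its second probe gave -0.36. Copies measure the error of the array and not that of the cells. Among 12 pairs of a used probe and another probe of the same gene, 11 had the same sign in PC3.

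In LNCaP the ratios were smaller. The median log2 ratio was -0.06 over the members and 0 over all genes, with 54 below 0 and 21 above. With the spike-in probes as the scale, the median turned to 0.06, with 0.10 over all genes. Relative to all genes the members lay lower by between 0.02 and 0.06 log2 units under the 5 scalings. As in PC3, only quantile normalization (0.02) and normexp (0.04) could move this gap other than through bounds. MRPS28, the small subunit protein bS1, gave 6903 units without and 9929 with ATO in LNCaP, and 8057 without and 7680 with ATO in PC3. LNCaP ATO was the highest array, and the log2 ratio in LNCaP was 0.41, against -0.01 in PC3. It was the only member past 1.25-fold in LNCaP (1 higher against 6.75% of all genes, 0 lower against 6.35%) and the only one past 2 scanner errors there.

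MRPS34, a small subunit protein particular to mitochondria, gave 13730, 12060, 10390 and 8534 units, and its log2 ratio of -0.30 in LNCaP was the lowest of the members. In PC3 its ratio was -0.23. MRPL37, also particular to mitochondria, gave 12710, 11740, 10300 and 8537 units, with log2 ratios of -0.23 and -0.22, and -0.19 and -0.18 for another of its probes. On this scale both genes were lower with ATO in both lines by similar amounts. With the 50th percentile the ratios were -0.31 in LNCaP and -0.04 in PC3 for MRPS34, and -0.24 and -0.02 for MRPL37. With the spike-in probes they were -0.18 and -0.33 for MRPS34, and -0.11 and -0.32 for MRPL37. The used probe of MRPL37 had a bright local background in LNCaP control. MRPS25 had a log2 ratio of 0.18 in LNCaP and 0.00 in PC3, and MRPL30 had 0.12 and -0.31. In all, 4 members in LNCaP lay further from 0 than 1 scanner error, 3 lower (MRPS34, MRPL37 and MRPL18, against 10.2% of 12236 genes) and 1 higher (MRPS28, against 11.4%). With the spike-in probes 0 were lower and 5 higher. Of 11 probe pairs, 6 had the same sign in LNCaP.

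The ratios of the members showed no correlation between the 2 lines. Of the 75 members measured on all arrays, 37 were lower with ATO in both lines, 6 were higher in both, 17 were lower in LNCaP and higher in PC3, and 15 the reverse. These counts move with the scaling. In the same order they were 16, 8, 44 and 7 with the 50th percentile, and 15, 8, 4 and 48 with the spike-in probes. Across members, which are not independent replicates and share the 4 arrays, Pearson's correlation of the ratios was -0.01. In LNCaP the ratios had an SD of 0.10, and 4 of 75 passed 1 scanner error. The median scanner error of 0.20 exceeds this SD, so it overstates the noise between members. However, 2 probes of 1 gene differed in LNCaP by a median of 0.12 over 11 pairs, no less than the SD of the members. Such values cannot show whether the lines order the members alike. The ratio in PC3 minus that in LNCaP had a median of -0.05 over the 76 members (47 below 0) and of 0.01 over all genes.

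**Figure D3:**
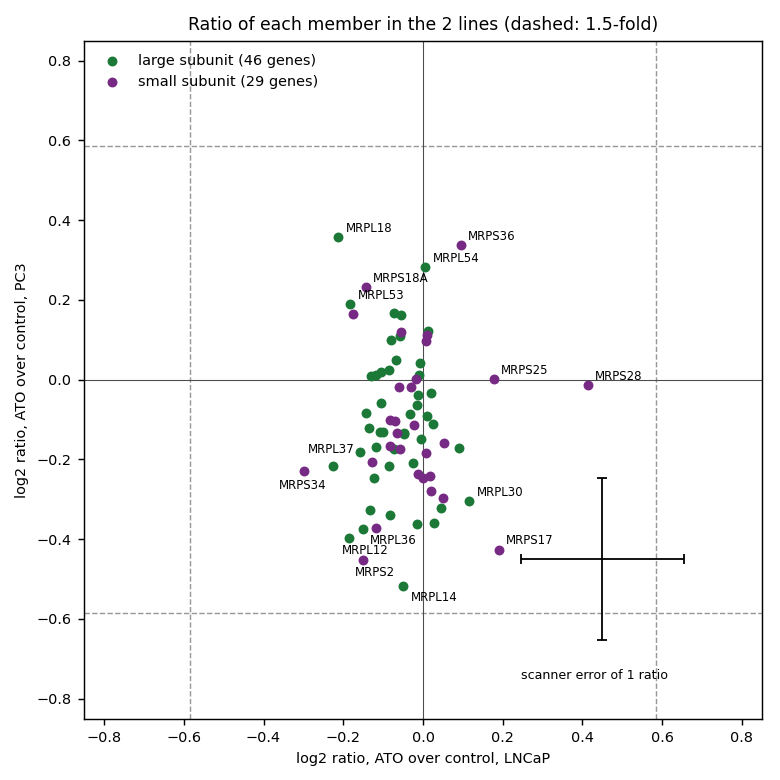
Log2 ratio of ATO over control in LNCaP (horizontal) and PC3 (vertical) for the 75 members measured on all arrays (MRPL35, which has a bound in LNCaP, is left out). Green points are large and purple points small subunit genes by name, dashed lines mark 1.5-fold, and the cross shows the median scanner error of 1 ratio. All points lie inside the dashed lines, with a wider range in PC3 (-0.52 to 0.36) than in LNCaP (-0.30 to 0.41).

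Both subunits and both evolutionary classes had similar medians in PC3. The large subunit had a median log2 ratio of -0.12 in PC3 (32 of 47 below 0) and the small subunit of -0.13 (21 of 29 below 0). In LNCaP the medians were -0.07 and -0.02. The 48 members with a bacterial counterpart had a median of -0.12 in PC3 and the 28 particular to mitochondria of -0.14. By promoter, the 28 members with an ETS match had a median of -0.04 in PC3 (17 below 0), and the 39 without one had -0.18 (32 below 0). In LNCaP these medians were -0.06 and -0.05. The 20 members with a YY1 match had a median of -0.17 in PC3 (16 below 0), and the 47 without one had -0.13 (33 below 0). None of these differences between subsets was tested.

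Other genes that serve the mitoribosome were taken from 4 lists written from general knowledge, with earlier results of these data known. Among 7 mitoribosome proteins with other names, the median log2 ratio in PC3 was -0.06. PTCD3, a small subunit protein of the pentatricopeptide family, gave 561.0, 536.6, 593.1 and 379.3 units on the 4 arrays in the order above and had a log2 ratio of -0.59 in PC3, which is 1.51-fold. Its spot had a bright local background on 1 of the 4 arrays, and with the 50th percentile the ratio was -0.40. DAP3, a GTP-binding protein of the small subunit, had a log2 ratio of -0.15. For 12 mitochondrial translation factors the median was -0.15, with 10 below 0. TUFM, the elongation factor that delivers transfer RNA, was at -0.30, and MTIF3, an initiation factor, at 0.38.

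The lists of assembly and of transcription lay lower in PC3. For 17 measured genes of mitoribosome assembly and ribosomal RNA modification, the median log2 ratio was -0.31, with 15 below 0. GTPBP10, a GTPase of large subunit assembly, gave 147.1, 159.1, 102.1 and 60.5 units and a log2 ratio of -0.70 in PC3. MRM1, which methylates the large ribosomal RNA, gave 564.1, 553.3, 455.2 and 272.6 units and a ratio of -0.69. C7orf30, the older name of MALSU1, which binds MRPL14 during assembly, was at -0.31. For 11 genes of mitochondrial transcription and RNA stability, the median was -0.34 and all 11 were below 0. TFAM, which packs mitochondrial DNA and starts its transcription, gave 2181, 2250, 2673 and 1433 units, and its log2 ratios were -0.07 in LNCaP and -0.85 in PC3. LRPPRC, which stabilises mitochondrial messenger RNA, was at -0.34 and POLRMT, the RNA polymerase, at -0.29.

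Of the 47 genes of the 4 lists with a value in PC3, 4 were lower by 1.5-fold or more (TFAM, GTPBP10, MRM1 and PTCD3; 8.51%, against 10.1% of all genes) and 0 were higher (against 8.38%). With the 50th percentile 1 was lower (TFAM), with the spike-in probes 7 were, and after normexp 2 were (TFAM and PTCD3), where GTPBP10 was at -0.14. No gene of the lists was higher by 1.5-fold under any of the 5 scalings. In LNCaP 0 of 48 passed in either direction. With the 50th percentile as the scale, the medians in PC3 of the assembly and the transcription lists stayed below 0, at -0.12 and -0.15, while those of the translation factors and of the other mitoribosome proteins turned to 0.04 and 0.14.

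The 2 gene families nearest in kind had other medians in PC3. The cytosolic ribosomal protein genes (101 on the array, 94 with a value) had a median log2 ratio of 0.06, with 32 below 0, and the nuclear genes for respiratory chain subunits (82 on the array, 79 with a value) had 0.06, with 25 below 0. Under each of the 5 scalings the members' median in PC3 was below those of both families. Scalings by a constant per array cannot change this order except through bounds. With quantile normalization the members were at -0.14, the cytosolic ribosomal protein genes at -0.03 and the respiratory chain subunits at 0.02. After normexp these medians were -0.11, 0.03 and 0.05. With the spike-in probes both families turned below 0 (-0.05 and -0.04). In LNCaP the medians were -0.02 and -0.03. The difference between the families was not tested.

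**Figure D4:**
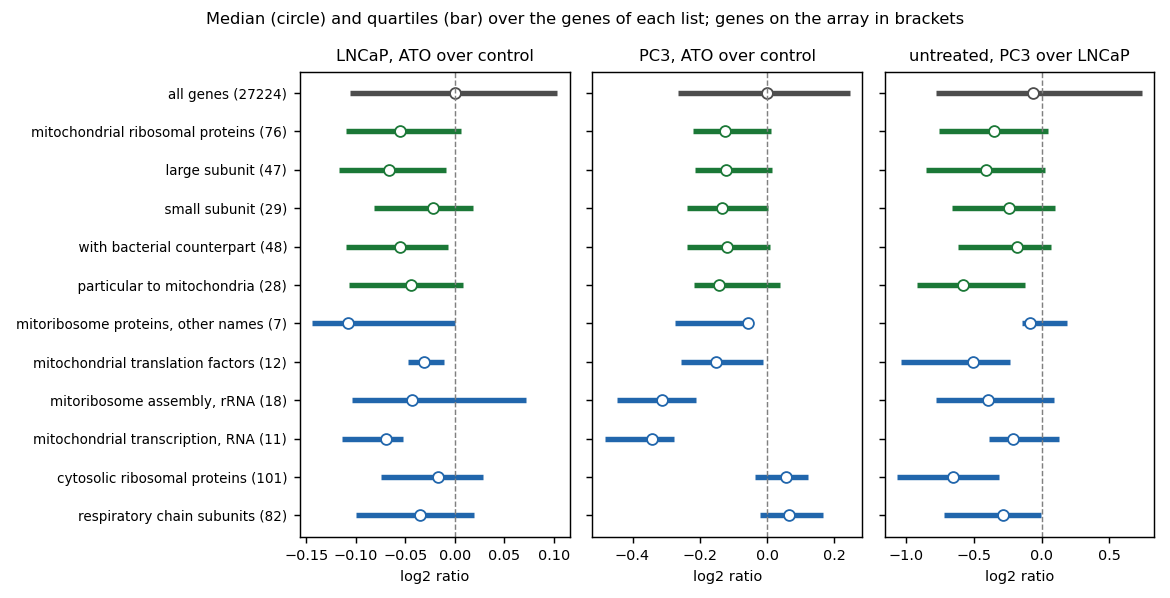
Median (circle) and quartiles (bar) of the log2 ratio over the genes of each list, for ATO over control in LNCaP (left) and PC3 (middle) and for untreated PC3 over LNCaP (right), with a separate horizontal scale in each panel. In PC3 the members have a median of -0.13 and the assembly and transcription lists of -0.31 and -0.34, while cytosolic ribosomal proteins and respiratory chain subunits lie at 0.06 (75th percentile scaling; the members' median is 0.07 with the 50th percentile).

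A test across the lines was possible only with the lines standing in as replicates. The limma fit of the treatment with cell line as a block, which has 1 residual degree of freedom, called 0 of 76 members at an adjusted p under 0.05, and 0% of the 11902 genes tested. At an unadjusted p under 0.05 there were 0 members, against 4.36% of the genes tested, and 1 member with an intensity trend in the prior. The smallest adjusted p was 0.763 (limma). In this fit the treatment effect of MRPS2 was -0.30 with a standard error of 0.15, and that of MRPL12 was -0.29 with one of 0.14.

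The lines themselves differed more than ATO and control did. Between the untreated arrays, 14 of 76 members differed 2-fold or more. Of these, 3 were higher in PC3 (3.95%, against 20.4% of 15237 genes) and 11 were lower (14.5%, against 19.3%). The median log2 difference, PC3 minus LNCaP, was -0.35 over the members and -0.06 over all genes, with 54 members below 0. The median and the split depend on the scaling: the median was -0.79 with the 50th percentile, where 3 were higher and 29 lower, and 0.17 with the spike-in probes, where 9 were higher and 4 lower. Under the 5 scalings the members' median was between 0.13 and 0.29 below that of all genes. Here too, a scaling by a constant per array moves this gap only through genes with a bound.

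The 3 members higher in PC3 were MRPL35, MRPS6 and MRPS10. MRPS6 (chr21:34437097-34437156), the small subunit protein bS6, gave 1865 units without and 2024 with ATO in LNCaP, and 6732 without and 5692 with ATO in PC3. Both PC3 arrays were above both LNCaP arrays, and the log2 difference between the controls was 1.59. MRPS10 (chr6:42282591-42282650), the small subunit protein uS10, gave 1847, 2007, 5993 and 6236 units and a difference of 1.44. MRPL35 had a difference of 2.05, from a probe that was dim in LNCaP. After normexp it was 0.80, which is under 2-fold. MRPL13, the large subunit protein uL13, was next at 0.88, followed by MRPL39 at 0.78.

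The members lower in PC3 were led by MRPL54, with the signals above and a log2 difference of -1.76. MRPL40 (chr22:17802372-17803174), particular to the mitochondrial large subunit, gave 5370, 5779, 2005 and 1741 units and a difference of -1.68. MRPL41 (chr9:139566659-139566718), another protein particular to the large subunit of mitochondria, gave 37560, 39020, 14030 and 15120 units, also a difference of -1.68. MRPS27 (chr5:71551553-71551612), a pentatricopeptide protein of the small subunit, gave 5458, 6099, 2136 and 1673 units and a difference of -1.61. MRPL15, the large subunit protein uL15, was at -1.33, and MRPL45, which tethers the mitoribosome to the inner membrane, at -1.02. For the first 4 of these genes both PC3 arrays were below both LNCaP arrays by over 2-fold, and the difference kept its sign under every scaling.

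Other members with known roles gave smaller differences between the untreated arrays. MRPL44, which resembles RNase III, was at -0.33, MRPL33 at -0.09, MRPS22 at -0.46 and MRPS12, a protein of the decoding site, at -0.86. MRPS16, the small subunit protein bS16, was at 0.54. Of these 5, MRPS12 and MRPS16 kept the sign under every scaling. The used probe of MRPL19 gave -0.16 and another of its probes 0.62, the only pair among 11 with opposite signs and a difference of over 0.3 in this comparison.

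By evolutionary class, the 28 members particular to mitochondria had a median log2 difference of -0.58, and the 48 with a bacterial counterpart had -0.18. By 2-fold or more, 6 of the 28 were lower (21.4%) and 0 higher, and of the 48, 5 were lower (10.4%) and 3 higher (6.25%), against 19.3% lower and 20.4% higher over all genes. The respiratory chain subunits had a median of -0.29 and the cytosolic ribosomal protein genes of -0.65. With the spike-in probes these became 0.24 and -0.13, so the sign for the respiratory chain depends on the scale. The differences between these groups were not tested.

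The limma fit of the cell line with treatment as a block, in which the 2 arrays of a line stand in as replicates, called 34 of 76 members at an adjusted p under 0.05. Of these, 6 were higher in PC3 (7.89%, against 25.3% of 13733 genes) and 28 were lower (36.8%, against 32.7%). The fitted difference was -1.75 with a standard error of 0.14 for MRPL40 (limma, adjusted p = 0.00484), 1.49 with one of 0.13 for MRPS10 (limma, adjusted p = 0.00606) and -1.78 with one of 0.16 for MRPS27 (limma, adjusted p = 0.00623). The split depends on the scaling: the 50th percentile gave 46 lower against 4 higher, and the spike-in probes 11 lower against 10 higher. With an intensity trend in the prior it called 47 members, with the spike-in probes 21, and with no filter on dim probes 8.

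**Figure D5:**
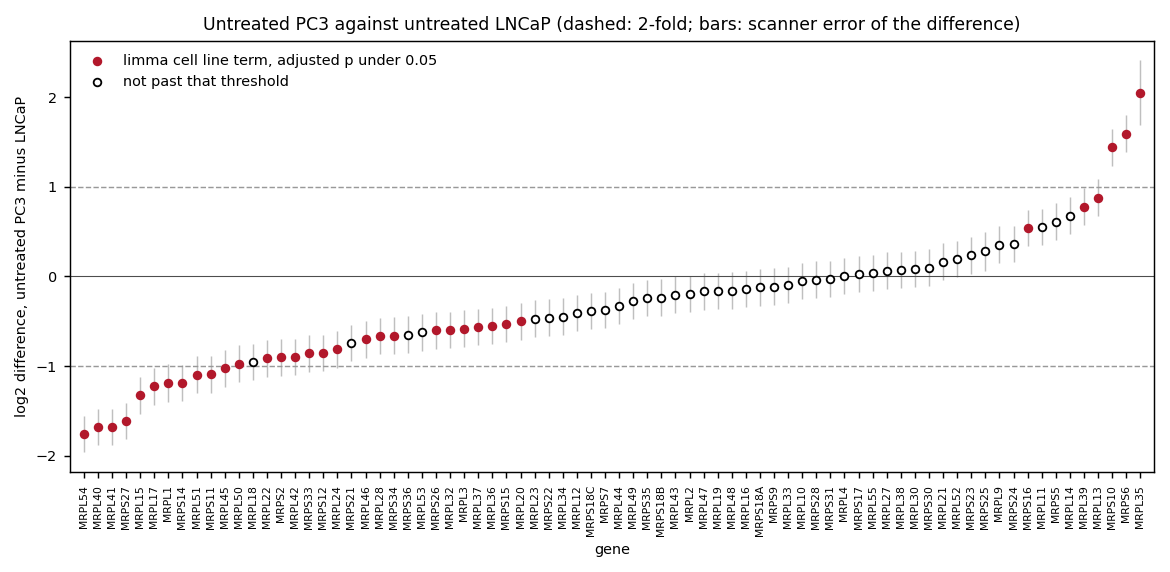
Log2 difference of each of the 76 members between the untreated arrays, PC3 minus LNCaP, in increasing order, with bars for the scanner error of the difference and dashed lines at 2-fold. Filled points are the 34 members past an adjusted p of 0.05 for the cell line in the limma fit over all 4 arrays. MRPL54, MRPL40, MRPL41 and MRPS27 lie lowest and MRPS10, MRPS6 and MRPL35 highest.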

How the data were processed

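Total RNA of the 4 cultures was profiled on Agilent Human v2 4x44K arrays by GenUS BioSystem, per the study's methods. Spots were quantified with Agilent Feature Extraction 9.5.3.1, and probe positions are on hg18, per the file headers. The deposited scanner files hold, for each spot, a linear intensity with background subtracted and spatial trend removed, an error of that intensity, and calls of spots well above background, saturated or outlying. The deposited value table gives 1 ratio for each probe. For between 99.5% and 99.95% of its values above 1, that ratio lay within 2% of the intensity over an array constant. Its medians were 0.07, 0.07, 0.09 and 0.08 and its lowest value 0.03, and the study's methods name GeneSpring for the analysis without stating the scaling.

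Outlier spots were left out, the log2 intensities of a probe's spots were averaged, and each array was centred on its 75th percentile over 34053 probes. Each gene took its brightest probe. A probe well above background on 1 of 2 arrays gave a bound, entered as 0 where it fell under 1-fold. Calls were 1.5-fold with ATO and 2-fold between lines. No p-value is given within a line, which has 1 array per group. The limma fits (limma 3.58.1, R 4.3.3, lmFit and eBayes, two-sided, Benjamini-Hochberg over all genes tested) had line and treatment as terms and took genes well above background on both arrays of a group of the term tested. The fits and counts were also run on simulated data with known changes. These had equal noise in every gene and changes alike in both lines or both treatments. They check the code and not how well the fits suit these arrays.

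The members, gene lists, motifs and thresholds were chosen with earlier results of these data known. Genes were named by a rule: 17 fixed genes, the 5 highest and 5 lowest ratios in each line and between untreated lines, dim probes, and genes whose probes disagreed in sign by over 0.3. Alternatives were other scalings (50th percentile, quantile, spike-in probes), normexp, outlier spots kept, the median over probes, no filter, bright local backgrounds left out, the deposited table, other fold thresholds and a trend in the limma prior. SLIRP, of the transcription list, was not found among the array's gene names. No exon annotation of hg18 and no protein sequences were used here.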

Additional observations from a re-analysis of the deposited data

Results flagged for a closer look

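MRPL18 had a log2 ratio of ATO over control of -0.21 in LNCaP and 0.36 in PC3, so the single pair of arrays of each line moved in opposite directions, each by more than the scanner error of 0.20. The difference between the lines was not tested, since each line has 1 array per condition. With normexp the ratio in PC3 was 0.05. In LNCaP the ratio was -0.16 with quantile normalization, -0.10 with the spike-in probes and -0.16 with normexp, each within the scanner error. The spot had a bright local background in LNCaP ATO, whose part in the result was not tested.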

How the results depend on the processing

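Over the 8 main results, 65 alternative values stayed within 1.5 times the count or within the spread between copies of a probe and 14 did not. With the spike-in probes the split of the members past 2-fold between the untreated lines turned from 11 lower against 3 higher to 4 lower against 9 higher. On that scale the median log2 ratio became 0.057 for LNCaP and -0.23 for PC3, 1 member was past 1.5-fold in PC3, the untreated median was 0.17 and the limma cell line term called 21. With the 50th percentile the median in PC3 was 0.067, the untreated median -0.79 and 32 members were past 2-fold between the untreated lines. Quantile normalization gave an untreated median of -0.22, and normexp 9 members past 2-fold. With no filter on dim probes the limma cell line term called 8. At 1.25-fold, added after seeing the data, 1 member passed in LNCaP and 12 in PC3, and at 1.5-fold 34 passed between the untreated lines. The causes were not tested. For the named genes, 833 values stayed within their error and 85 moved. The 108 values with no filter and the 60 with bright local backgrounds left out reuse the main levels, so they are no check of the ratios. The 50th percentile shifts all ratios of a comparison by 1 constant. In PC3 that constant was under the scanner error, so those values count as staying although the members' median changed sign. The median over probes gave 73 members a value, and 46 remained without bright local backgrounds. With 1 array per group, no array could be left out, and the labels give no replicate numbers to serve as a block, while the limma fits held line or treatment as one. The ratios of the members in LNCaP are mostly within the scanner error. Of the 54 members below 0 there, 19 kept that sign under all 4 other scalings, and of the 21 above 0, 9 did. Most of their signs thus depend on the scaling and are not resolved by these arrays.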
